A study of Mus musculus with 13 samples.

Results

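The proteasome genes are the protein-coding genes whose mouse symbol starts with Psm, then a letter from a to g and a digit. Of 51 such genes, 49 had at least 1 region of the deposited H3K27ac table over the gene body, of 13970 protein-coding genes with such a region in the whole series. The 2 without a region were Psmb11, the thymus-type catalytic subunit gene, and Psme2b. H3K27ac, an acetylation of histone H3 found at active promoters and enhancers, was profiled by chromatin immunoprecipitation and sequencing in macrophages grown from mouse bone marrow in M-CSF for 5 days.

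All cells carried the genotype IL10-/-RAG2-/- on the 129S6/SvEvTac strain, so neither the treated nor the untreated macrophages could make their own IL-10, and the donor mice lacked mature T and B cells. The late IL-10 group received LPS, a bacterial cell wall lipopolysaccharide, at 1 ng/mL for 195 min, with IL-10 present in the last 30 min only, at a dose not stated separately in the labels. The continuous IL-10 group received LPS at 1 ng/mL together with IL-10 at 1 ng/mL for 195 min. The LPS group received the same LPS for 195 min, and the last group was untreated. Each group had 3 libraries, described by the submitters as independent pools of macrophages.

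The proteasome is the barrel-shaped protease that degrades proteins tagged with ubiquitin. Its 20S core is built of alpha subunits, which form the gate, and beta subunits, of which some cut the substrate. The 19S cap recognises, unfolds and feeds in the substrate with a ring of ATPases and a set of non-ATPase subunits. In cells exposed to interferon, the catalytic subunits Psmb5, Psmb6 and Psmb7 are replaced in new particles by Psmb8, Psmb9 and Psmb10, and Psme1 and Psme2 form the PA28 activator that can replace the cap. Such immunoproteasomes cut more of the peptides that fit into MHC class I molecules. The 49 genes comprised these 5 immunoproteasome genes, 8 alpha and 7 beta subunits of the core, 6 ATPases and 11 non-ATPases of the cap, 2 other activators (Psme3 and Psme4), 7 assembly factors, the inhibitor Psmf1, and 2 genes (Psmc3ip and Psme3ip1) that match by symbol but encode interacting proteins. Psma8 is a testis-type alpha subunit.

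The 49 genes held 67 regions. A gene had 1 region in 37 cases, 2 in 8 cases and 3 or more in 4 cases, up to 5 at Psmb7. A region was shared with another protein-coding gene in 23 of the 67, and 17 genes had shared regions only. All 5 immunoproteasome genes are among these 17. Psmb8 (chr17:34196385-34200130) and Psmb9 (chr17:34185122-34190276) each share their only region with Tap1, the gene of a peptide transporter that lies between them. Psmb10 (chr8:105936386-105941177) shares its region with Lcat, and Psme1 (chr14:55575944-55580912) with Fitm1. Psme2 has one region shared with Rnf31 (chr14:55588381-55596351) and another shared with Emc9 (chr14:55581785-55587745). H3K27ac in a shared region cannot be assigned to 1 of the genes. Psmb8 and Psmb9 lie close together on chr17, and Psme1 and Psme2 on chr14, so the 5 genes are not 5 separate loci.

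Of the members, 41 had a promoter in the RefSeq table (GRCm38.p6, the same build as mm10), and each of these 41 genes had at least 1 listed start inside a region. Over all genes with a region and such an entry, the share with at least 1 start inside a region was 87.9% (9874 of 11235). The promoters of the 5 immunoproteasome genes and of Psmb5, a constitutive counterpart, are shown because the regions that carry the results below lie over them. Each runs 5′ to 3′ on the strand of the gene, with 250 bases before the start and 50 after it, as listed by RefSeq on GRCm38.p6. Capitals mark matches to GAAANNGAA (a core of the element bound by interferon regulatory factors), TTCNNNGAA (a core of the STAT element) or GGGANTTNC (an NF-kB type element), searched on both strands.
Psmb8, chr17:34197945-34198244, plus strand: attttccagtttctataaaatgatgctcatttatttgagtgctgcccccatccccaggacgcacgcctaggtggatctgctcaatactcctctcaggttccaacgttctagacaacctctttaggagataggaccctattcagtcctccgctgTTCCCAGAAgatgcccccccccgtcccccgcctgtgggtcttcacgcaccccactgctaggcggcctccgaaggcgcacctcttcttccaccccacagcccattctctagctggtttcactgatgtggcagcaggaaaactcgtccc
Psmb9, chr17:34187281-34187580, minus strand: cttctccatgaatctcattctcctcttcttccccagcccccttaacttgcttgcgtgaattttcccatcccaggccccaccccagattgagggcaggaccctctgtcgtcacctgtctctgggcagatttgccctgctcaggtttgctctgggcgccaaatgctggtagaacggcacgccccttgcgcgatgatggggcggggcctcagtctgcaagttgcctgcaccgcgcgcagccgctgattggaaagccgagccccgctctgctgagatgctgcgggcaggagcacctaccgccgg
Psmb10, chr8:105938343-105938642, minus strand: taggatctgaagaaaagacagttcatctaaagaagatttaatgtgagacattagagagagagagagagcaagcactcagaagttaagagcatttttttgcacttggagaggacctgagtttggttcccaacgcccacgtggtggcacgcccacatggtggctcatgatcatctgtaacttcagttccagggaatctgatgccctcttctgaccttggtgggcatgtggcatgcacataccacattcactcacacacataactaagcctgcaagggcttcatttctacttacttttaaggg
Psme1, chr14:55578244-55578543, plus strand: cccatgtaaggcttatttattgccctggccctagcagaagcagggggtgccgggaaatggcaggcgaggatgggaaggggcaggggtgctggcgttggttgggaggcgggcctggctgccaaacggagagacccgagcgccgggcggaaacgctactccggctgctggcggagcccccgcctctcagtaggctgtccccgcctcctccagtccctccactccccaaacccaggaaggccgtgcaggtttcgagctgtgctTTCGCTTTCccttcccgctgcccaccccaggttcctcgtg
Psme2, chr14:55591052-55591351, minus strand: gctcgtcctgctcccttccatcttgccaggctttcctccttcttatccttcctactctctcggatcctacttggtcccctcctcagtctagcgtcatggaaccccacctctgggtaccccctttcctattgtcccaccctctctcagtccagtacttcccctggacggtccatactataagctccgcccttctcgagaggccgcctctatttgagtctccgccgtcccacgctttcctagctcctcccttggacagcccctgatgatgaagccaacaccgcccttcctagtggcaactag
Psmb5, chr14:54617946-54618245, minus strand: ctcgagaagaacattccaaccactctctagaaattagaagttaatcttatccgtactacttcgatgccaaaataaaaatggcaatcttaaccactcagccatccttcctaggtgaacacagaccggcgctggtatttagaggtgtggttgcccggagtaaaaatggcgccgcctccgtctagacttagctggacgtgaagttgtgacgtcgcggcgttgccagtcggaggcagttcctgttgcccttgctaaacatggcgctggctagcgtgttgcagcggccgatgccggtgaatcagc

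Psmb9, Psmb10, Psme2 and Psmb5 held none of these motifs. Within these windows, Psmb8 held TTCCCAGAA, a match to the STAT-type core, and Psme1 held TTCGCTTTC, which is the interferon-type core read on the other strand. The interferon-type core was found in 1 of 5 immunoproteasome promoters, in 13.9% of the 36 other proteasome promoters and in 8.57% of all 27025 promoters in the table. The STAT-type core was found in 1 of 5, in 5.56% and in 8.47% of the same sets. The NF-kB type motif was in none of the 5, in 8.33% of the others (Psma6, Psmd10 and Psmd2) and in 4.35% of all. TGACTCAGC, the antioxidant-type element bound by NRF factors, which drive proteasome genes when the protease is inhibited, was in none of the 41 and in 0.426% of all. CCAAT was in 1 of 5 (Psmb9), in 36.1% of the others and in 37.9% of all. The matches are descriptions of letters in these windows and do not show binding.

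The libraries held between 5149730 and 26922552 reads in 40691 regions, counted from the deposited values, and replicate 3 was the deepest in each group. A gene's value is the sum of the authors' deposited, library-scaled signal over its regions, called normalised reads below. Differences are on the scale log2(normalised reads + 1). A gene was called at an adjusted p under 0.05 (Benjamini-Hochberg) in a limma model of all 12 libraries over 12573 genes, which included all 49 members. Every adjusted p below is from that model unless another is named. Counts at an unadjusted p, and counts of genes whose groups did not overlap, are given without the share over all genes. They have no background here and are descriptions only. The 10 macrophage marker genes examined all had a region, none at the floor of 1 read, and their summed level was between 41307 and 54433 with late IL-10, 47658 and 57741 with continuous IL-10, 47274 and 72102 with LPS, and 44063 and 58452 untreated. The sum hides changes of single markers. With LPS against untreated, 2 of the 10 rose (Cd14 and Spi1) and 3 fell (Csf1r, Cd68 and Mpeg1), beside 12.8% and 11.4% of all genes. Of the T cell markers 5 of 6 had a region, with sums of 916 to 1192 with late IL-10, 396 to 579 with continuous IL-10, 667 to 853 with LPS and 442 to 623 untreated. Cd3e was at the floor in untreated cells, and Cd8a had no region. A region was found at 2 of 5 B cell markers, with sums of 1983 to 3066 with late IL-10, 1797 to 2541 with continuous IL-10, 1538 to 1914 with LPS and 2500 to 3245 untreated. For neutrophils 3 of 6 had one (not Ly6g, Mpo and S100a9), with sums of 1174 to 1755, 1933 to 2283, 1377 to 1866 and 661 to 1619 in the same order of groups. All 5 dendritic cell markers had one, with sums of 4131 to 9521, 3265 to 5932, 4494 to 11476 and 5332 to 6380, and Flt3 was at the floor with LPS. For fibroblasts 3 of 5 had one (not Col1a2 and Pdgfra), with sums of 3506 to 4391, 5846 to 6284, 4022 to 5697 and 7236 to 9764, while Col1a1 was at the floor in all groups but late IL-10, and Dcn in untreated cells. Nearly all of this sum was Pdgfrb, with 7235, 7366 and 9763 untreated, beside 7234, 7365 and 9763 at the macrophage marker Csf1r. The fibroblast sum therefore cannot be told apart from macrophage signal. The part of other cells in the results below was not tested.

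In untreated macrophages the proteasome genes carried more H3K27ac per kilobase than the median region of the series. Per kilobase of region, the median of the 49 was 66.6 normalised reads, against a median of 16.4 over all 40691 regions. The 41 member regions that hold a start had a median of 70.1. All regions include those away from starts, and start regions of other genes were not compared, so the difference is not particular to proteasome genes. The highest was Psma2, a core alpha subunit gene, at 135. The highest assembly factor gene was Psmg2 at 123 and the highest ATPase gene Psmc5 at 101. The lowest was Psma6 at 13.3, whose single region is 72289 bp wide. The medians by role per kilobase were 79.7 for immunoproteasome genes, 78.8 for alpha subunits, 75 for ATPases, 67.9 for assembly factors, 65.8 for non-ATPases of the cap and 52.5 for beta subunits. Within the beta subunits the lowest and highest were Psmb7 at 21.7 and Psmb1 at 87.3, and within the cap Psmd11 at 23.6 and Psmd13 at 95.3. Untreated replicate 3 gave the highest of the 3 values at 38 of the 44 other members and all 5 immunoproteasome genes, and LPS replicate 3 at 35 of 44 and 4 of 5. The deepest library thus stood highest at most members in these 2 groups, and its part was tested by leaving each library out. It also stood highest over all genes tested, so this is not particular to proteasome genes. The median log2 value of all genes was 9.012 in untreated replicate 3, beside 8.299 and 8.134. In LPS replicate 3 it was 8.997, beside 8.09 and 8.269.

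LPS was followed by higher H3K27ac at every immunoproteasome gene and by changes in both directions at a minority of the others. Relative to untreated cells, 12 of the 49 genes rose and 3 fell. Among all 12573 genes 12.8% rose and 11.4% fell. All 5 immunoproteasome genes rose, by a median of 1.32, while 7 of the 44 others rose and 3 fell, with a median of 0.15. The median over all genes was -0.10. Whether more cells carried the mark or each cell carried more of it cannot be told apart in such bulk samples. Among the markers of other cell types tested, 2 of 4 for T cells, 1 of 3 for neutrophils (Camp) and 2 of 5 for dendritic cells (Ccr7 and Zbtb46) rose with LPS. Falls were seen at 1 neutrophil marker (Elane), 2 dendritic cell markers (Flt3 and Siglech) and the 1 fibroblast marker tested. That fibroblast marker was Pdgfrb, whose values were close to those of Csf1r, a macrophage marker that also fell. Zbtb46, a transcription factor gene of classical dendritic cells, moved in the same direction as the immunoproteasome genes with LPS and with continuous IL-10. It had 308, 312 and 225 normalised reads with late IL-10, 135, 178 and 171 with continuous IL-10, 427, 516 and 447 with LPS and 202, 184 and 168 untreated. Zbtb46 rose with LPS relative to untreated cells (1.32, adjusted p = 0.00965) and fell with continuous IL-10 relative to LPS (-1.52, adjusted p = 0.0195). With late IL-10 all Zbtb46 libraries lay below those with LPS, unlike the immunoproteasome genes, and it was not called there. Of the 5 dendritic cell markers, 2 stood higher and 3 lower with continuous IL-10 than with LPS. The T cell marker Cd247 also rose with LPS, and was at -1.55 with continuous IL-10 relative to LPS, not called. Of the 4 T cell markers tested, 2 stood higher and 2 lower in each of these comparisons. Cd4 was at -3.59 with LPS relative to untreated cells, and Cd3d at 1.03 with continuous IL-10 relative to LPS, neither called. The part of Zbtb46 and Cd247 in the results was not tested.

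Psmb8, the immunoproteasome counterpart of Psmb5, had 878, 1086 and 1156 normalised reads with LPS, against 262, 236 and 455 in untreated cells. The groups did not overlap, and the log2 difference was 1.76 (SE 0.30, adjusted p = 9.99e-04 from limma). Psmb9, the counterpart of Psmb6, had 1173, 1353 and 1955 with LPS and 369, 355 and 772 untreated, a difference of 1.64 (SE 0.36, adjusted p = 0.00442 from limma). Psmb10, the counterpart of Psmb7, had 852, 795 and 848 with LPS and 276, 328 and 541 untreated. All its LPS libraries were above the untreated ones (1.18, SE 0.32, adjusted p = 0.0149). Psmb10 no longer passed once untreated replicate 1 or 2 was left out (adjusted p = 0.0746 and 0.0553).

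Psme1, which encodes the alpha subunit of PA28, had 638, 526 and 1058 normalised reads with LPS and 227, 192 and 525 untreated. The highest untreated library lay just under the lowest LPS library. The difference was 1.32 (SE 0.40, adjusted p = 0.0293). Leaving out untreated replicate 1 or 2 gave an adjusted p of 0.113 and 0.123, and leaving out LPS replicate 1 or 3 gave 0.0623 and 0.0701. With the gene body extended by 1000 bp on both sides it was 0.72 (adjusted p = 0.2). Psme2, the beta subunit of PA28, had 1676, 1793 and 1976 with LPS and 609, 618 and 1101 untreated, and rose by 1.28 (SE 0.26, adjusted p = 0.00315). Of its 2 regions, the one that holds the start rose by 1.66 (adjusted p = 6.17e-04), and the other was at -1.11 (adjusted p = 0.217).

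The constitutive counterparts were not called. Psmb5 had 82.6, 155 and 367 normalised reads with LPS and 100.4, 109.7 and 270.5 untreated, and the groups overlapped (0.22, SE 0.64, 95% interval -1.17 to 1.60, adjusted p = 0.865). Psmb7 had 364, 368 and 402 with LPS and 340.0, 193 and 335 untreated without overlap (0.43, SE 0.33, 95% interval -0.28 to 1.14, adjusted p = 0.402). Psmb6 had 634, 849 and 408 with LPS and 294, 246 and 335 untreated. Its groups did not overlap, and its difference of 1.06 (SE 0.39, adjusted p = 0.0653) passed with the replicate number as a block (adjusted p = 0.0111). Its 95% interval ran from 0.22 to 1.89, and it also passed without LPS replicate 3 (adjusted p = 0.0181).

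**Figure D1:**
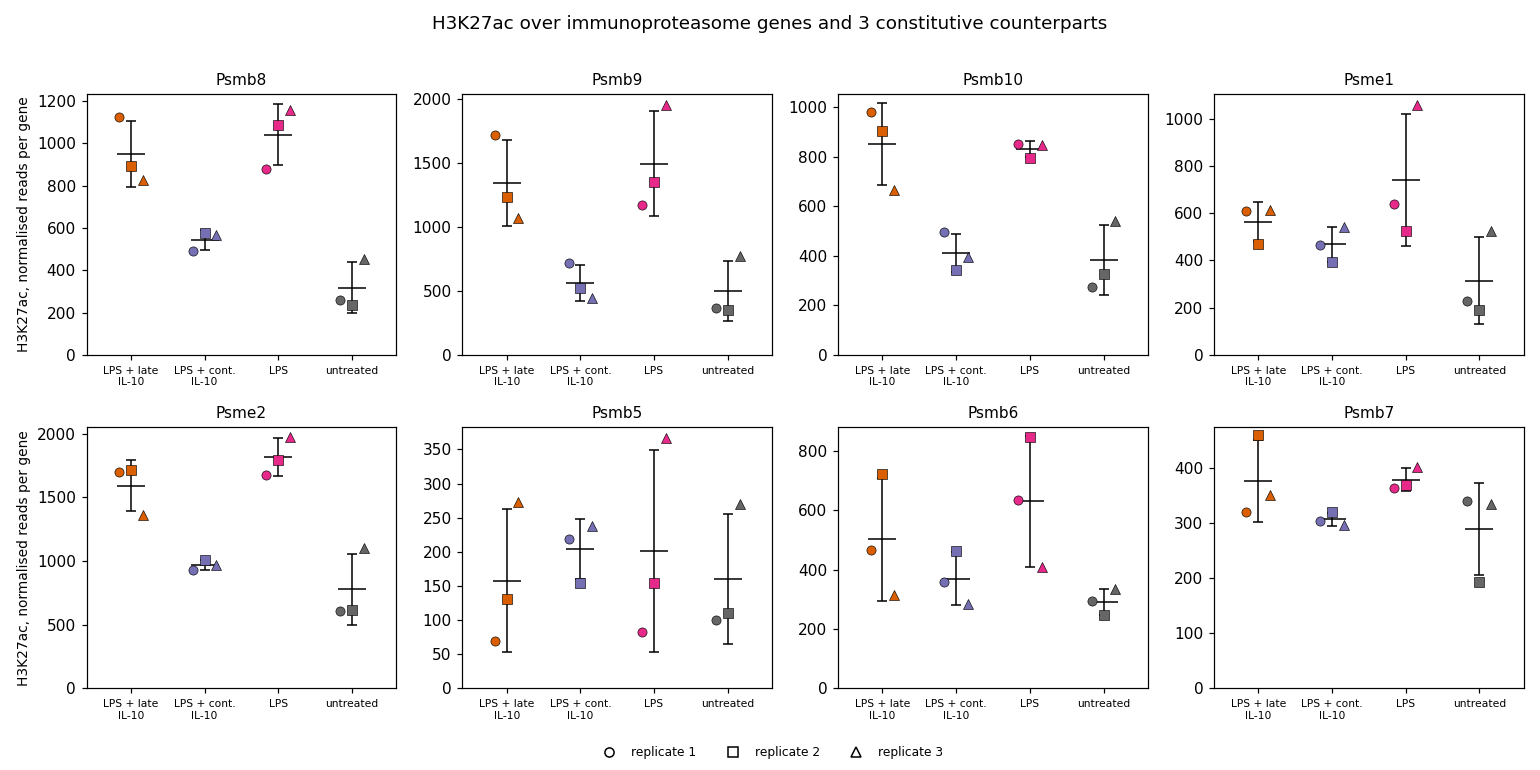
H3K27ac in normalised reads summed per gene (vertical axis, linear from 0, a separate scale for each gene) in the 4 groups, with 1 point per library, its shape the replicate number, and the mean and SD of 3 libraries as bars. At Psmb8 the continuous IL-10 libraries lie between 489 and 575, the LPS libraries between 878 and 1156 and the untreated ones between 236 and 455.

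Set against the constitutive counterpart within a library, the catalytic immunosubunit genes stood higher after LPS at Psmb8 and Psmb10. The log2 ratio of Psmb8 over Psmb5 averaged 2.62 ± 0.88 with LPS and 1.07 ± 0.31 untreated (SD, n = 3 each), and no LPS library was below an untreated one. That of Psmb10 over Psmb7 averaged 1.14 ± 0.08 with LPS and 0.38 ± 0.59 untreated, also without overlap. That of Psmb9 over Psmb6 averaged 1.27 ± 0.86 with LPS and 0.69 ± 0.46 untreated, and the groups overlapped. These ratios are descriptions without a test.

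**Figure D2:**
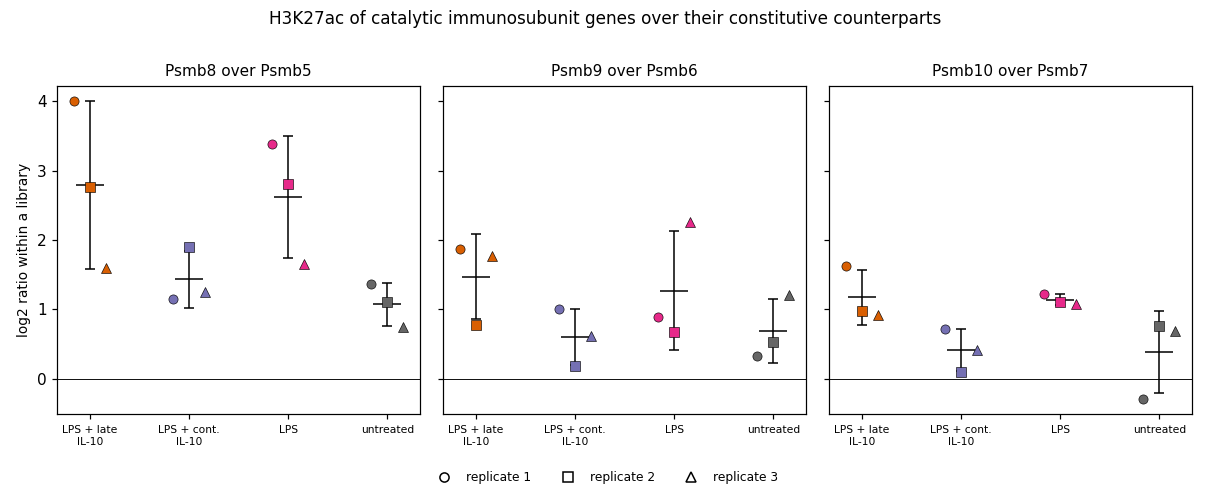
Log2 ratio, within each library, of the normalised reads of an immunoproteasome gene over those of its constitutive counterpart (vertical axis), by group, with 1 point per library and the mean and SD of 3 as bars. Psmb8 over Psmb5 spans 1.60 to 4.01 with late IL-10, 1.15 to 1.90 with continuous IL-10, 1.65 to 3.39 with LPS and 0.75 to 1.37 untreated.

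Among the alpha subunits of the core, Psma4, Psma5 and Psma6 rose with LPS and Psma1 fell. Psma4 had 687, 793 and 899 normalised reads with LPS, against 283, 299 and 503 untreated (1.17, SE 0.31, adjusted p = 0.0134). Psma4 was not called when 1 of untreated replicates 1 and 2 was omitted (adjusted p = 0.0643 and 0.0549), nor without replicate 2 of LPS (adjusted p = 0.05). Its start region is shared with Hykk and AY074887. With shared regions left out, the difference at Psma4 was 0.03. Psma5, whose region is its own, had 685, 810.0 and 537 with LPS and 185, 184 and 258 untreated, with no overlap (1.69, SE 0.37, adjusted p = 0.00486). Psma6 had 7829, 9780 and 4175 with LPS and 948, 799 and 1140 untreated (2.84, SE 0.36, adjusted p = 1.22e-04). Its region (chr12:55352423-55424711) covers the whole gene (chr12:55384222-55418459) and is shared with Prorp, the gene of a mitochondrial RNase P protein.

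Psma1 had 1261, 1114 and 987 normalised reads with LPS and 3720, 4292 and 4419 untreated. All LPS libraries were far below the untreated ones, and the log2 difference was -1.89 (SE 0.23, adjusted p = 9.55e-05). Its single region of 50454 bp (chr7:114274527-114324980) runs from the 5′ end of the gene (chr7:114264550-114276116, minus strand) far upstream and overlaps no other protein-coding gene of the RefSeq table. Of the other alpha subunits, Psma2 (0.81, adjusted p = 0.134), Psma3 (0.15), Psma7 (0.20) and Psma8 (-0.80) were not called. None of the 7 beta subunits and none of the 6 ATPases of the cap was called by limma or edgeR. At an unadjusted p under 0.05, 1 beta subunit was higher, and no ATPase passed. The beta subunits ran from -0.63 at Psmb3 to 1.06 at Psmb6, and the ATPases from -0.66 at Psmc1 to 0.72 at Psmc6.

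Of the 11 non-ATPases of the cap, Psmd8 and Psmd11 rose and Psmd1 and Psmd13 fell. Psmd8 had 421, 571 and 499 normalised reads with LPS and 221, 178 and 357 untreated (1.03, SE 0.34, adjusted p = 0.0444). Psmd8 was still called without untreated replicate 3, but leaving out any other of the 6 libraries gave an adjusted p between 0.0536 and 0.165. Psmd11 had 494, 709 and 735 with LPS and 148, 103 and 376 untreated (1.82, SE 0.44, adjusted p = 0.00898). Psmd1, a large scaffold subunit of the cap, had 333, 435 and 791 with LPS and 1797, 1679 and 2655 untreated (-2.04, SE 0.35, adjusted p = 9.87e-04). Psmd13 had 114, 133 and 303 with LPS and 1013, 1179 and 1375 untreated, the steepest fall of the 49 (-2.82, SE 0.40, adjusted p = 2.87e-04). At none of these 4 genes did the libraries of the groups overlap. The region of Psmd13 (chr7:140871007-140883483) is shared with Sirt3, a mitochondrial deacetylase gene, and lies mostly upstream of the Psmd13 start.

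Among the 2 other activators and the 7 assembly factors, Psme4 and Psmd10 rose. Psme4, which encodes the PA200 activator of the nuclear proteasome, had 1348, 1418 and 793 normalised reads with LPS and 369, 259.7 and 402 untreated (1.76, SE 0.33, adjusted p = 0.00187). Psmd10, the gene of the assembly factor gankyrin, had 795, 1264 and 288 with LPS and 84.1, 139.9 and 100.5 untreated (2.63, SE 0.54, adjusted p = 0.00307). All LPS libraries were above all untreated ones at both genes, although LPS replicate 3 was well under the other two. The region of Psmd10 (chrX:140953218-140958125) is shared with Atg4a, an autophagy protease gene. The other 6 assembly factors were not called and ran from -1.69 at Psmg3 to 0.50 at Psmd5, nor were Psme3 (0.62), Psmf1 (-0.08), Psmc3ip (-0.52) and Psme3ip1 (-0.03).

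**Figure D3:**
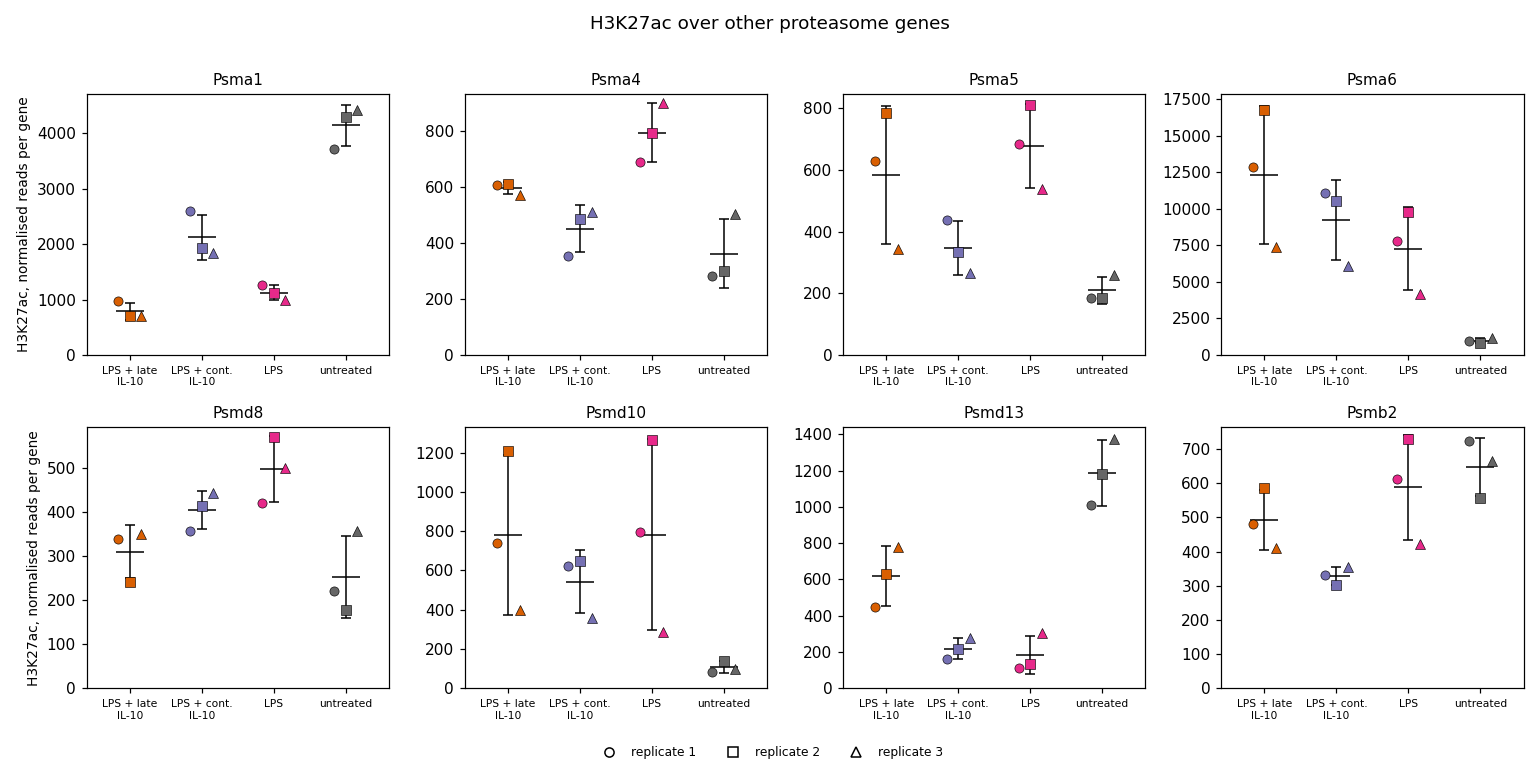
H3K27ac in normalised reads summed per gene (vertical axis, linear from 0, a separate scale for each gene) at 8 other proteasome genes in the 4 groups, with 1 point per library and the mean and SD of 3 as bars. Psma1 lies between 987 and 1261 with LPS and between 3720 and 4419 untreated, and Psma6 between 4175 and 9780 with LPS and between 799 and 1140 untreated.

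Taken region by region, several of these differences came from a region away from the start of the gene. Of 64 member regions tested, 13 rose and 7 fell with LPS, against 16.5% and 17.9% of all 36621 regions tested. Among the 41 that hold a RefSeq start, 11 rose and 2 fell. Among the 9 known not to hold one, 2 rose and 2 fell, and of the 14 without a start entry 3 fell. The regions named next were picked after their values were seen.

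At Psmd1 the region holding the start had 277, 389.9 and 752 normalised reads with LPS and 380.3, 320.2 and 749 untreated, a difference of -0.06 (adjusted p = 0.937). The fall lay in a region of 27521 bp inside the gene body that is shared with Htr2b, a serotonin receptor gene (chr1:86106661-86134181). It had 53.1, 43.7 and 38.5 with LPS and 1407, 1351 and 1897 untreated (-5.07, SE 0.51, adjusted p = 1.68e-05). With shared regions left out, Psmd1 was at -0.06 with LPS (adjusted p = 0.949), and was likewise not called in either IL-10 group against untreated cells (-0.12 with late IL-10, adjusted p = 0.873, and -0.07 with continuous IL-10, adjusted p = 0.956). At Psmd11 the start region was at 0.99 (SE 0.50, adjusted p = 0.145). A second region inside the gene (chr11:80449801-80455391) had 266, 400.0 and 106 with LPS and was at 1 read in each untreated library, which makes its mean at least 108-fold higher with LPS, taking 3 reads per library as the floor (adjusted p = 6.57e-05). At Psme4 the start region was at 0.13 (adjusted p = 0.853), and a region inside the gene (chr11:30784299-30788808) had 1118, 1250 and 366 with LPS and 159, 85.7 and 56.9 untreated (3.11, SE 0.55, adjusted p = 8.17e-04).

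Other differences did not reach the sum of the gene. The start region of Psma3, whose sum was at 0.15, had 838, 825 and 1488 normalised reads with LPS and 348, 330.3 and 743 untreated. It was called higher, but not in 5 of the 6 fits that left out 1 library (adjusted p up to 0.128 in limma). At Psmb2, a beta subunit gene whose sum was at -0.17, a region of 8123 bp (chr4:126696762-126704884) was at 1 read in each LPS library and had 385, 241 and 323 normalised reads untreated. Its mean was at least 77-fold lower with LPS, with the same floor (adjusted p = 1.82e-04), while another region of Psmb2 (chr4:126676673-126684000) had 608, 726 and 422 with LPS and 322, 296 and 329.5 untreated (0.85, adjusted p = 0.0553). At Psmb7, the region shared with Nek6 (chr2:38586872-38592366) was at 1 read in each LPS library and had 113, 15.1 and 30.1 untreated, at least 12.8-fold lower (adjusted p = 0.0139). Leaving out untreated replicate 1 ended that call (adjusted p = 0.0726 from limma) and lowered the bound to 5.51-fold. At Psmd2, whose start region was at -0.01, a region inside the gene had 31.5, 38.7 and 3.25 with LPS and 119, 184 and 229 untreated (-3.29, SE 0.90, adjusted p = 0.0121). No source used here says if background reads were subtracted before the floor of 1 read was set, so these bounds apply to the values as deposited.

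**Figure D4:**
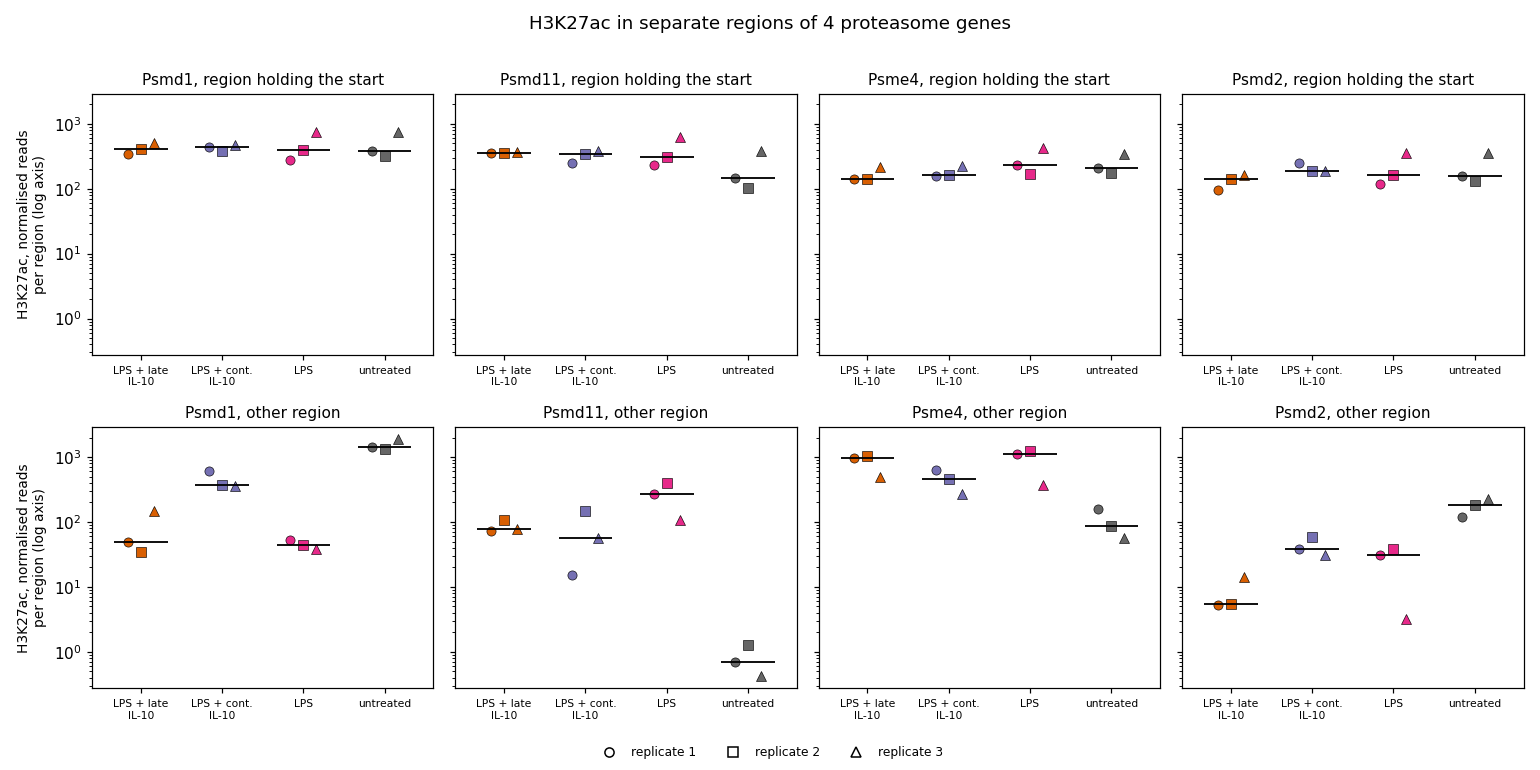
H3K27ac in normalised reads per region (vertical axis, log scale) in the 4 groups at 4 proteasome genes, with 1 point per library and the median of 3 as a line; the upper row shows the region that holds the RefSeq start and the lower row the other region with the highest mean. At Psmd1 the upper region spans 277 to 752 with LPS and 320.2 to 749 untreated, while the lower one spans 38.5 to 53.1 with LPS and 1351 to 1897 untreated.

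With continuous IL-10 all 5 immunoproteasome genes stood lower than with LPS alone, and 1 of them passed the test. Relative to LPS, 1 of the 49 genes rose, Psma1, and 1 fell, Psmb9, where 2.09% and 2.56% of all genes tested did. All 5 immunoproteasome genes were on the lower side, from -1.41 to -0.61 with a median of -0.93. At 4 of the 5 all continuous IL-10 libraries were below all LPS libraries, and the share of all genes so separated is not given here. The median of the 44 others was -0.05 and that of all genes 0.04. With the replicate number as a block, 3 members rose and 7 fell, beside 6.28% and 8.72% of all genes, and the 7 included 4 immunoproteasome genes.

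Psmb9 had 718, 525 and 441 normalised reads with continuous IL-10, against 1173, 1353 and 1955 with LPS, a difference of -1.41 (SE 0.36, adjusted p = 0.0395; 0.00675 with the block). Leaving out any 1 of the 6 libraries ended that call (adjusted p between 0.0554 and 0.134). Psmb10 had 496, 343 and 395 with continuous IL-10, against 852, 795 and 848 with LPS (-1.03, SE 0.32, adjusted p = 0.0858; 0.0225 with the block). Psmb8 had 489, 575 and 565 with continuous IL-10, against 878, 1086 and 1156 with LPS (-0.93, SE 0.30, adjusted p = 0.106; 0.0272 with the block). At these 3 genes of catalytic subunits no library of one group reached the other group. Psme2 had 929, 1010 and 965 with continuous IL-10, against 1676, 1793 and 1976 with LPS, without overlap (-0.90, SE 0.26, adjusted p = 0.0703; 0.0161 with the block). Psme1 had 467, 393 and 543 with continuous IL-10, against 638, 526 and 1058 with LPS, and its groups overlapped (-0.61, SE 0.40, 95% interval -1.48 to 0.26, adjusted p = 0.549).

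The constitutive counterparts stood at 0.25 for Psmb5 (95% interval -1.13 to 1.64), -0.73 for Psmb6 (95% interval -1.57 to 0.10) and -0.30 for Psmb7 (95% interval -1.01 to 0.41), none called. The log2 ratio of Psmb8 over Psmb5 averaged 1.43 ± 0.41 with continuous IL-10 and 2.62 ± 0.88 with LPS, and that of Psmb10 over Psmb7 averaged 0.41 ± 0.30 with continuous IL-10 and 1.14 ± 0.08 with LPS (SD, n = 3 each). That of Psmb9 over Psmb6 averaged 0.60 ± 0.41 with continuous IL-10 and 1.27 ± 0.86 with LPS. At Psmb10 over Psmb7 the groups did not overlap, and at Psmb8 over Psmb5 and Psmb9 over Psmb6 they did.

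Psma1, which had fallen with LPS, had 2593, 1933 and 1842 normalised reads with continuous IL-10, against 1261, 1114 and 987 with LPS. All its continuous IL-10 libraries were above the LPS libraries (0.91, SE 0.23, adjusted p = 0.042). Psma1 no longer passed when any 1 of the 6 libraries was left out (adjusted p between 0.0586 and 0.17), nor under centring on library medians (adjusted p = 0.213) or in edgeR (adjusted p = 0.24). The block also called Psmd1 (0.84, adjusted p = 0.041) and the ATPase gene Psmc1 (0.99, adjusted p = 0.0478) higher, and Psma4 (-0.82, adjusted p = 0.0388), Psma5 (-0.98, adjusted p = 0.0461) and Psme4 (-0.89, adjusted p = 0.0362) lower. Without the block these 5 had adjusted p of 0.227, 0.364, 0.165, 0.177 and 0.17. Psmd1 passed without LPS replicate 3 (adjusted p = 0.0338), and so did Psme4 (adjusted p = 0.0424).

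Of the member regions tested, 2 rose and 1 fell with continuous IL-10 relative to LPS, where 3.28% and 3.24% of all regions did. With the block 2 rose and 8 fell, beside 7.42% and 8.98% of all regions. The region inside Psmd1 that is shared with Htr2b had 605, 377 and 355 normalised reads with continuous IL-10 and 53.1, 43.7 and 38.5 with LPS, a difference of 3.25 (SE 0.51, adjusted p = 0.00296). The start region of Psmd1 was at -0.01. The region inside Psmd11 was at -2.12 (SE 0.86, adjusted p = 0.185) and that inside Psme4 at -0.92 (SE 0.55, adjusted p = 0.412).

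With late IL-10, present for the last 30 min only, the libraries overlapped those of LPS alone at every immunoproteasome gene. Relative to LPS alone, Psmd13 was the 1 gene of the 49 that rose and none fell, while 2.71% and 0.215% of all genes did. At an unadjusted p under 0.05, 1 member was higher and 1 lower, and edgeR also called none lower. The 5 immunoproteasome genes lay between -0.34 and 0.01, with a median of -0.15 beside -0.17 over all genes. None of the 5 passed at an unadjusted p under 0.05 or in edgeR. With each library centred on its median, the median of all genes was -0.06 here and -0.08 against untreated cells, where it had been -0.22.

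Psmb8 had 1125, 894 and 828 normalised reads with late IL-10 and 878, 1086 and 1156 with LPS (-0.13, 95% interval -0.79 to 0.52, adjusted p = 0.999). Psmb9 had 1721, 1236 and 1073 with late IL-10 and 1173, 1353 and 1955 with LPS (-0.15, 95% interval -0.91 to 0.62, adjusted p = 0.999). Psmb10 had 981, 903 and 665 with late IL-10 and 852, 795 and 848 with LPS (0.01, 95% interval -0.67 to 0.69, adjusted p = 1). In each of the 3 intervals the lower bound lay above the value of that gene with continuous IL-10 (-0.93, -1.41 and -1.03), a comparison that shares the LPS libraries. Those values have an error of their own, so this is no test of the schedules. The direct comparison below called none of these genes in the main model. Psme1 had 609, 469 and 612 with late IL-10 and 638, 526 and 1058 with LPS (-0.34, 95% interval -1.21 to 0.53). Psme2 had 1696, 1715 and 1360 with late IL-10 and 1676, 1793 and 1976 with LPS (-0.20, 95% interval -0.76 to 0.37).

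Psmd13 had 449, 631 and 781 normalised reads with late IL-10 and 114, 133 and 303 with LPS, with no overlap (1.86, SE 0.40, adjusted p = 0.0222). It did not pass without LPS replicate 1 or 2 (adjusted p = 0.108 and 0.0971) or without late IL-10 replicate 2 or 3 (adjusted p = 0.1 and 0.0759). Psma1 had 969, 697 and 701 with late IL-10 and 1261, 1114 and 987 with LPS, all late libraries below all LPS ones, and was not called (-0.52, SE 0.23, adjusted p = 0.429). Of the member regions, 1 rose, that of Psmd13, and none fell, where 3.14% and 0.396% of all regions did. At an unadjusted p under 0.05, 2 regions were higher and 0 lower, and the block called 2 higher and 0 lower, beside 6.17% and 1.92% of all regions. The region inside Psmd1 had 49.3, 34 and 148 with late IL-10 and 53.1, 43.7 and 38.5 with LPS (0.49, adjusted p = 0.872).

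**Figure D5:**
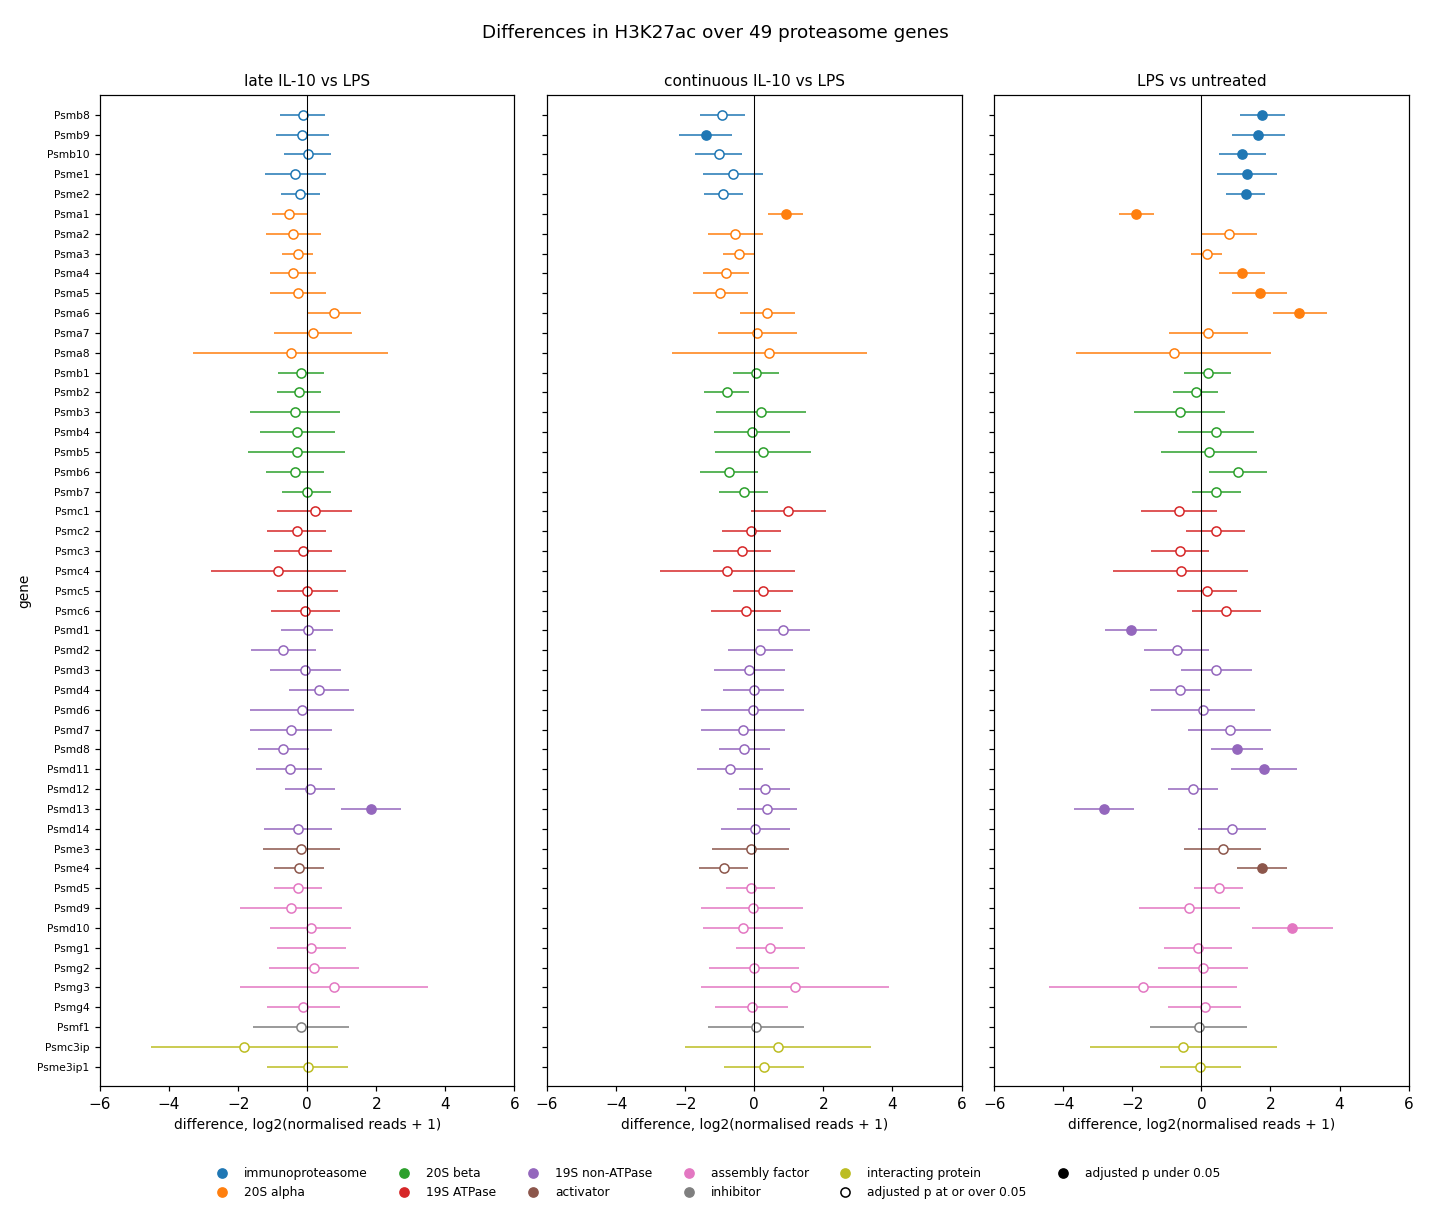
Difference in log2(normalised reads + 1) of each of the 49 proteasome genes (horizontal axis, 95% intervals as lines), grouped and coloured by role, for late IL-10 against LPS, continuous IL-10 against LPS and LPS against untreated. Filled points have an adjusted p under 0.05, and the 5 immunoproteasome genes lie between -0.34 and 0.01, between -1.41 and -0.61, and between 1.18 and 1.76 in these 3 comparisons.

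Compared directly, the immunoproteasome genes stood higher with late than with continuous IL-10 by a median of 0.80. None of the 5 differences passed in limma or edgeR, and 4 did at an unadjusted p under 0.05. The values ran from 0.27 at Psme1 (adjusted p = 0.826) to 1.26 at Psmb9 (SE 0.36, adjusted p = 0.0856). At 4 of the 5 all late libraries were above all continuous ones, and the share of all genes so separated is not given here. Among all 49 members none rose and 1 fell, where 1.46% and 0.509% of all genes did. At an unadjusted p under 0.05, 5 members were higher and 2 lower, a threshold to which the shares of all genes just given do not apply. edgeR called Psmd13 higher. The 1 that fell was Psma1, with 969, 697 and 701 normalised reads with late IL-10 and 2593, 1933 and 1842 with continuous IL-10 (-1.43, SE 0.23, adjusted p = 0.0184). This did not pass when continuous IL-10 replicate 2 (adjusted p = 0.0801) or late IL-10 replicate 1 or 2 (adjusted p = 0.0916 and 0.127) was left out. Centring on library medians (adjusted p = 0.0968) and edgeR (adjusted p = 0.0996) ended it too. The region inside Psmd1 also fell with late relative to continuous IL-10 (-2.76, SE 0.51, adjusted p = 0.0164).

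Relative to untreated cells, late IL-10 was followed by 9 higher and 3 lower members, against 14% and 13.4% of all genes, and continuous IL-10 by 2 higher and 4 lower, against 7.45% and 7.01%. Both comparisons share the untreated libraries with that of LPS. Of the immunoproteasome genes, 4 of 5 rose with late IL-10, Psmb8 by 1.63 (adjusted p = 0.00148), Psmb9 by 1.50 (adjusted p = 0.00674), Psmb10 by 1.19 (adjusted p = 0.0126) and Psme2 by 1.08 (adjusted p = 0.00764). Psmb10 did not pass when untreated replicate 1 (adjusted p = 0.0641) or late IL-10 replicate 1 or 2 (adjusted p = 0.0644 and 0.0515) was omitted. Psme1 was at 0.98 (adjusted p = 0.091) and passed with the block (adjusted p = 0.00905), under median centring (adjusted p = 0.00463), in edgeR (adjusted p = 0.00528) and when untreated replicate 3 was omitted (adjusted p = 0.0113). With continuous IL-10 none of the 5 was called by limma, and 1 was higher at an unadjusted p under 0.05. Their values ran from 0.15 at Psmb10 (95% interval -0.53 to 0.83) to 0.83 at Psmb8 (adjusted p = 0.0906), and Psmb8 passed under median centring (adjusted p = 0.0322), in edgeR (adjusted p = 0.0273) and without untreated replicate 3 (adjusted p = 0.0166). Psme1 passed under median centring (adjusted p = 0.0487) and without untreated replicate 3 (adjusted p = 0.0499).

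Of the other 44, Psma6 and Psmd10 rose in both IL-10 groups relative to untreated cells. Psma6 had 12837, 16790 and 7366 normalised reads with late IL-10, 11058, 10542 and 6102 under continuous IL-10, and 948, 799 and 1140 untreated, for differences of 3.61 and 3.23. Psmd10 had 738, 1209 and 399 with late IL-10, 621, 649 and 357 with continuous IL-10, and 84.1, 139.9 and 100.5 untreated. Its differences were 2.73 with late and 2.30 with continuous IL-10, and the second did not pass when untreated replicate 1 (adjusted p = 0.054) or continuous replicate 2 (adjusted p = 0.0558) was omitted. Psma5 (1.42), Psmd11 (1.31) and Psme4 (1.53) rose with late IL-10. Psma5 was not called without late IL-10 replicate 1 or 2 (adjusted p = 0.0559 and 0.0685). Psmd11 was called without untreated replicate 3, but not when any other of the 6 libraries was omitted (adjusted p between 0.0734 and 0.17). With continuous IL-10 Psmd11 was at 1.11 (adjusted p = 0.125). It passed once untreated replicate 3 was omitted (adjusted p = 0.0106), under median centring (adjusted p = 0.0221) and in edgeR (adjusted p = 0.0239).

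Psma1 and Psmd1 fell in both IL-10 groups. Psma1 was at -2.40 with late IL-10 and at -0.98 with continuous IL-10. The second did not pass without continuous replicate 2 (adjusted p = 0.0647), under median centring (adjusted p = 0.135) or in edgeR (adjusted p = 0.129). Psmd1 was at -2.04 with late IL-10 and at -1.20 with continuous IL-10, and the second did not pass when any 1 of the 6 libraries was left out (adjusted p between 0.0581 and 0.135). Psmd13 fell by 2.46 with continuous IL-10, with 164, 218 and 275 normalised reads against 1013, 1179 and 1375 untreated. With late IL-10 it was at -0.96 (adjusted p = 0.0965), and passed with the block (adjusted p = 0.00918), under median centring (adjusted p = 0.0256) and in edgeR (adjusted p = 0.0323). Psmd2 fell by 1.41 with late IL-10 (adjusted p = 0.0279), but not once untreated replicate 3 (adjusted p = 0.0954) or late IL-10 replicate 1 or 2 (adjusted p = 0.123 and 0.0647) was dropped. Psmb2 fell by 0.97 with continuous IL-10 (adjusted p = 0.0469). Dropping any 1 of the 6 libraries compared ended the call at Psmb2 (adjusted p between 0.0764 and 0.166), as did centring on library medians (adjusted p = 0.161) and edgeR (adjusted p = 0.123). The block also called Psma4 (0.77, adjusted p = 0.0221) higher and Psmb3 (-0.99, adjusted p = 0.0369) and Psmc3ip (-2.35, adjusted p = 0.0423) lower with late IL-10, for 11 higher and 6 lower members in all, beside 18.9% and 24.6% of all genes.

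Genes that work with the proteasome were taken from a list of 24 partners and regulators, of which 23 were tested. With LPS 1 rose and 2 fell, with a median of 0.08, while 12.8% and 11.4% of all genes did, so neither share stood above that of all genes. Nfe2l1, the transcription factor that restores proteasome gene expression after inhibition, rose by 1.08 (SE 0.29, adjusted p = 0.0153), while Ddi2, the protease that activates it, fell by 1.06 (adjusted p = 0.0273), and Ubb, a polyubiquitin gene, fell by 0.95 (adjusted p = 0.0256). None of the 23 was called in either IL-10 group relative to LPS by limma or edgeR. At an unadjusted p under 0.05, 1 was higher with late IL-10, and 1 was higher and 2 were lower with continuous IL-10. Relative to untreated cells, Uchl5, a deubiquitinase of the cap, fell by 1.12 with late IL-10 (adjusted p = 0.044) and by 1.68 with continuous IL-10 (adjusted p = 0.00942). Pomp, the chaperone of core assembly, fell by 1.02 with continuous IL-10 (adjusted p = 0.0312).

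The median of 12 genes of MHC class I antigen presentation was 0.93 with LPS relative to untreated cells, beside -0.10 over all genes. Of these 12, 6 rose and none fell, beside 12.8% and 11.4% of all genes. These were Tap1 (1.69), Tap2 (1.33), Nlrc5 (1.31), the class I transactivator, Irf1 (1.29), an interferon-response factor, B2m (1.27), the class I light chain, and Tapbp (1.09), the tapasin gene. Relative to LPS, none of the 12 rose and 3 fell with continuous IL-10, beside 2.09% and 2.56% of all genes. These were Tap1 (-1.18, adjusted p = 0.0409), Tapbp (-1.12, adjusted p = 0.0227) and Irf1 (-1.07, adjusted p = 0.0162). The sum of Tap1 includes the regions of Psmb8 and Psmb9, so it is no independent value. With late IL-10 none of the 12 was called relative to LPS, by limma, by edgeR or at an unadjusted p under 0.05. Irf1 had 4360, 5112 and 4160 normalised reads with late IL-10 and 2266, 1951 and 2401 with continuous IL-10, and was the 1 gene of the 12 called between the schedules (1.04, SE 0.22, adjusted p = 0.0346). Relative to untreated cells, 5 of the 12 rose and none fell with late IL-10, beside 14% and 13.4% of all genes. With continuous IL-10 none rose and 1 fell, H2-D1 at -1.02, beside 7.45% and 7.01% of all genes.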

How the data were processed

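H3K27ac ChIP-seq libraries of 12 macrophage samples were used; an input library was not used here. The deposited table gives a signal for each library in 40691 consensus regions (mm10). The submitters' processing notes name Trim Galore, Bowtie2, MACS2 and DiffBind, without versions or roles. Within a library each deposited signal is a whole multiple of the value of 1 read (100% of values, tolerance 0.0001), with a floor of 1 read. Between 19.7% and 29.9% of regions were at that floor, and the median region held 18 to 89 reads.

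Signal was summed over the regions that overlap each RefSeq protein-coding gene by at least 1 bp. limma 3.58.1 (R 4.3.3, trend and robust moderation, group only, all 12 libraries) was fitted to log2(sum + 1) of the deposited signal for genes whose mean was above the 10th percentile, and likewise to regions. This scale understates differences at weak features. Depth differed between libraries, and the fit takes no account of the counting error of single values. edgeR 4.0.16 (quasi-likelihood, TMM) on the recovered read counts was an alternative, as were a pseudocount of 16, no filter, median centring, exclusive regions, a gene body extended by 1000 bp, leaving out each library, and the replicate block. An exact permutation test of 3 against 3 cannot go below p = 0.1, so none is given. The scripts were tested on simulated data.

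The design text describes separate macrophage pools. Same-numbered libraries deviated together in 16 of 18 pairs (correlation over 0.1, range 0.0222 to 0.794). By this measure same-numbered libraries went together in each comparison but late against continuous IL-10 and continuous IL-10 against untreated, where 1 pair was under 0.1 (0.0222 and 0.0416). The deepest library had the same number in each group, and whether depth gives this pattern was not tested. The labels do not state a pairing, so the replicate block is an alternative setting only.

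The members and gene lists were chosen with earlier results of these data known. Named in full are the immunoproteasome genes, their constitutive counterparts and the members called with LPS against untreated or with either IL-10 schedule against LPS. Others are given by role, with the extremes.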

Additional observations from a re-analysis of the deposited data

Results flagged for a closer look

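Psma1 differed between the 2 IL-10 schedules, which share the same LPS contrast. It was lower with late than with continuous IL-10 (-1.43, SE 0.23, adjusted p = 0.0184 in limma over all genes tested). Against LPS it stood at -0.52 with late IL-10 and at 0.91 with continuous IL-10, and both comparisons share the LPS libraries. Psma1 had 969, 697 and 701 normalised reads with late IL-10 and 2593, 1933 and 1842 with continuous IL-10, without overlap. The difference between the schedules no longer passed under median centring (adjusted p = 0.0968), in edgeR (adjusted p = 0.0996), or without continuous IL-10 replicate 2 (adjusted p = 0.0801) or late IL-10 replicate 1 or 2 (adjusted p = 0.0916 and 0.127).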

How the results depend on the processing

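No difference of a proteasome gene that passed the test changed direction under the alternatives run. A pseudocount of 16 and no filter changed no call. With exclusive regions only 32 members were left to test, and none of the immunoproteasome genes was among them. That setting gave 4 members higher and 1 lower with LPS against untreated, 0 lower with continuous IL-10 against LPS, 0 higher with late IL-10 against LPS, 0 higher and 2 lower with continuous IL-10 against untreated, and 3 higher with late IL-10 against untreated. Continuous IL-10 against LPS gave 0 higher with median centring and 0 with edgeR, and 3 higher and 7 lower with the replicate block. Late against continuous IL-10 gave 1 higher and 0 lower with median centring, the same with edgeR, and 3 higher and 2 lower with the replicate block. Continuous IL-10 against untreated gave 5 higher with median centring, 5 with edgeR and 5 with the block, and late IL-10 against untreated 6 lower with the block. For regions, median centring left 0 lower with continuous IL-10 and 0 higher with late IL-10 against LPS, and the block gave 8 lower and 2 higher there. Leaving out each library in turn gave 0 to 2 higher and 0 to 2 lower members with continuous IL-10 against LPS, 0 to 1 higher with late IL-10 against LPS, 0 to 1 lower with late against continuous IL-10, and 1 to 5 higher and 1 to 2 lower with continuous IL-10 against untreated. In regions it gave 8 to 15 higher with LPS, 1 to 2 higher and 0 to 1 lower with continuous IL-10 against LPS, and 0 to 1 higher with late IL-10 against LPS. The cause of these changes was not tested. Under exclusive regions fewer members were tested, but Psma4 and Psmd1 still were and lost their calls with LPS against untreated. They stood at 0.03 (adjusted p = 0.989 in limma) and -0.06 (adjusted p = 0.949 in limma). In late against continuous IL-10 the block called Psmb9 (adjusted p = 0.0147), Psmb10 (adjusted p = 0.0232) and Psmd13 (adjusted p = 0.00214) higher and Psmd1 (adjusted p = 0.0439) lower, and in continuous IL-10 against untreated Psmb8 (adjusted p = 0.0288), Psmd11 (adjusted p = 0.027) and Psme4 (adjusted p = 0.0238) higher and Psmc3 (adjusted p = 0.024) lower. The block changed no other call than those given here and in the comparisons above. Of 714 differences of single genes and regions recomputed without 1 library, 59 no longer passed and 8 newly passed. Depth limits weak regions, where 1 read is worth 0.419 to 1.97 units of signal.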
